A study of Rattus norvegicus with 15 samples.

Results

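The genes described here are 10 markers of T cells and natural killer (NK) cells measured in whole rat liver: Klrd1, Cd2, Cd3d, Cd3e, Cd8a, Gzma, Gzmb, Prf1, Nkg7 and Ccl5. They were chosen by name, as all non-control array probes whose gene name is one of these symbols or an older alias of it. They are 10 of 36412 genes and unnamed features on the array, and 7 of them are among the 20229 features bright enough to be tested. Each gene had 1 probe, except that 3 probes carried the name Gzmb. Of those, 2 were described in the files as cDNAs of granzyme-like proteins I and III, so only the probe made from the granzyme B reference transcript was used as Gzmb.

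The livers came from female Wistar Crl:WI rats aged 2 to 3 months. In the treated group, 8 rats received fipronil by feeding needle once a day over 14 days, at a daily 3 mg/kg; the compound is an insecticide whose target in insects is the GABA receptor channel. The control group of 7 rats received only the vehicle, methylcellulose and Tween 80 in water. RNA of 1 liver, from a fragment of the large lobe, went onto each one-colour Agilent array, and the 15 arrays lay on 4 slides, each with rats of both groups.

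T cells recognise peptides on MHC molecules through a receptor that signals through the CD3 chains, whereas NK cells read MHC class I loss and stress ligands through germline receptors such as the CD94 heterodimers. Both kill by releasing granules in which perforin opens the way for granzymes, proteases that start apoptosis in the target. The liver is known for a resident population of NK cells and CD8 T cells in its sinusoids, where they meet Kupffer cells and sinusoidal endothelium. In RNA of a whole tissue, fewer cells of a type and less RNA per cell cannot be told apart.

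Promoters are shown for the 4 granule genes, of which Gzma, Prf1 and Nkg7 varied together across livers with r from 0.77 to 0.84 and Gzmb less so, as described further on. They are 300 bases each, from 250 before to 50 after the annotated start, from RefSeq on build GRCr8, printed 5′ to 3′ along the gene's own strand. Capitals mark matches, on either strand, to TGTGGTT (the core bound by RUNX factors), AGGAAGT (bound by ETS factors) or TGACTCA (bound by AP-1).
Gzma, chr2:46485647-46485946, strand -: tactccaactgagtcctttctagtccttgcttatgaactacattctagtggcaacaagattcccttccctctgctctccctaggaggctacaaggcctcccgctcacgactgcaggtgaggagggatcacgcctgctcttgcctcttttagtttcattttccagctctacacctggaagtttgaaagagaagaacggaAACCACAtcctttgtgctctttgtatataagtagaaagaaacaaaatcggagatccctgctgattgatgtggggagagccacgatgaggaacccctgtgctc
Prf1, chr20:29788790-29789089, strand +: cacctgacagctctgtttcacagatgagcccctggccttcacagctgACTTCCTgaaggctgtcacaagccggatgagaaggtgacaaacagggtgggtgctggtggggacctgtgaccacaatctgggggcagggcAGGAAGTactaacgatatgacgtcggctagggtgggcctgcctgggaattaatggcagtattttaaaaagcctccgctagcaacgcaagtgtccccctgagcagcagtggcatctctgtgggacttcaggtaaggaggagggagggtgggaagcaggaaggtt
Gzmb, chr15:34462420-34462719, strand -: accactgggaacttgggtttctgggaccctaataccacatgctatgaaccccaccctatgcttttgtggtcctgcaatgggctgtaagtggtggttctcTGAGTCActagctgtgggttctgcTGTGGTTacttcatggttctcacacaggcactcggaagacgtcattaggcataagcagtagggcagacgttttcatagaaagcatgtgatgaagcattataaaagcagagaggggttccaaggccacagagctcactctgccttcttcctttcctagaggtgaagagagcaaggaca
Nkg7, chr1:102981247-102981546, strand +: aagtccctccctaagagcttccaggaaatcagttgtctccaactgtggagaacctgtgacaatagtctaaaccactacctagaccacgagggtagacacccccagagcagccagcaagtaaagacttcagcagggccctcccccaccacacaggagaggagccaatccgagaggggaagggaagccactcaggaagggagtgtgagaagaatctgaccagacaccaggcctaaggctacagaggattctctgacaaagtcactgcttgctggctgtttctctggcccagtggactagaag
The RefSeq table held 8 of the 10 genes and not Klrd1 or Ccl5. TGTGGTT was found in 3 of the 8 promoters (Cd2, Gzma and Gzmb), against 5.57% of the 33469 promoters of the same length. AGGAAGT was found in 2 of 8 (Cd3e and Prf1, the latter with 2 matches), against 8.41%, and TGACTCA in 1 of 8 (Gzmb), against 4.63%. The T-box core TCACACC and the NF-kB consensus matched 0 of 8, against 3.83% and 7.51% of all promoters. None of these motifs overlapped another in the 8 promoters. In Gzma the RUNX match begins at position -52 from the start. In Gzmb the RUNX match begins at -127 and the AP-1 match at -151. The Nkg7 promoter has no match and is shown for comparison.

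Each signal below is the log2 ratio of a probe's processed intensity to its own array's 75th percentile, so a value of 0 is a probe as bright as that percentile. The percentile itself was 185 to 270 intensity units on fipronil arrays and 115 to 214 on vehicle arrays, and 55.3% to 59.5% and 50.7% to 57.7% of probes were well above background. The number of arrays limits the precision. Differences were fitted with limma over all features, with p-values adjusted over all 20229, and 175 features passed an adjusted p under 0.05 (0.865%).

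None of the 7 tested markers passed the test. Of the 7, 6 had higher mean signal with fipronil, by 0.32 (Nkg7) to 0.95 (Klrd1) on the log2 scale, and Cd3d was close to level at -0.07. Gzmb, among the 6, just met the minimum of 7 arrays above background, with 5 fipronil and 2 vehicle arrays. It was thus tested mainly through the group where it was higher, and counts that include it are descriptions. The median difference of the 7 was 0.58, beside -0.03 for all tested features, of which 44.3% were higher. At an unadjusted p under 0.05, 4 of the 7 were higher (Klrd1, Ccl5, Gzma and Prf1) and 0 lower, where 6.17% of all tested features were higher at that p. On 1 of the slides, slide 2, the difference ran the other way, and values with and without it are given after the single genes. The plot of signal by rat shows every value behind these numbers.

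**Figure D1:**
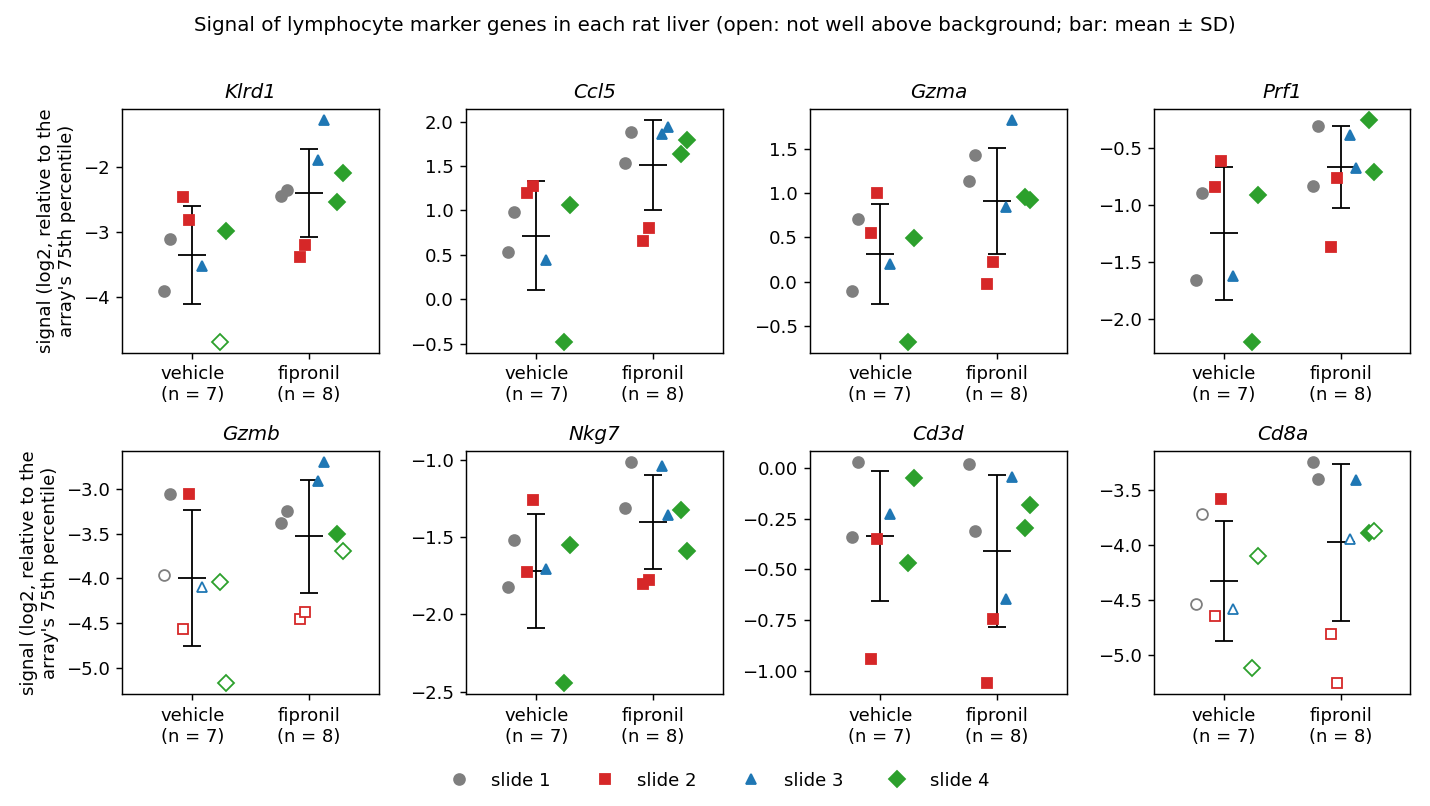
Signal of the 7 tested markers and Cd8a in each liver, on a log2 axis relative to the 75th percentile of the array, by group (vehicle, n = 7, and fipronil, n = 8), with symbols for the 4 slides, open where the spot was not well above background, and bars for mean ± SD. The groups overlap for every gene, and the 2 fipronil livers of slide 2 (squares) are the lowest of their group for every gene except Prf1.

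Klrd1 encodes CD94, which pairs with NKG2 chains to form receptors for nonclassical MHC class I on NK cells and some T cells. The Klrd1 probe covers rn4 chromosome 4, 166878917 to 166878976. Signal was -3.39 at the lowest, -2.40 at the median and -1.28 at the highest with fipronil, and -4.69, -3.10 and -2.46 with vehicle. Of the 8 fipronil livers 5 were above the highest vehicle liver, and the others overlapped with the vehicle group. Every fipronil array and 6 of 7 vehicle arrays gave a spot well above background. Means were -2.40 ± 0.68 (SD, n = 8) and -3.35 ± 0.75 (SD, n = 7). The difference was 0.95 (SE 0.34, 95% interval 0.24 to 1.66), or 1.93-fold, with a limma adjusted p of 0.174 (unadjusted 0.0120). With quantile normalization of processed intensity alone it was 1.01 (limma adjusted p = 0.166). After normexp background correction and quantile normalization it was 0.26 (adjusted p = 0.232). Normexp was run with an added offset of 50 intensity units. That is above the median Klrd1 intensity of both groups, 42.9 with fipronil and 14.6 with vehicle.

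Ccl5 encodes RANTES, a chemokine made by activated T and NK cells that draws T cells and monocytes. Its probe spans rn4 chromosome 10 from 71606089 to 71609018, a stretch of 2930 bases, where the probes of the other markers cover 60. Signal ran from 0.65 through a median of 1.72 to 1.94 with fipronil, and from -0.48 through 0.98 to 1.27 with vehicle. All 15 arrays were well above background, and 6 of the 8 fipronil livers were above every vehicle liver. Means were 1.51 ± 0.50 (SD, n = 8) and 0.71 ± 0.62 (SD, n = 7). The difference of 0.80 (SE 0.26, 95% interval 0.24 to 1.36), or 1.74-fold, had the smallest p of the 7 tested markers and did not pass (limma adjusted p = 0.151, unadjusted 0.00805). With normexp and quantile normalization the difference was 0.68 (adjusted p = 0.154).

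Gzma encodes granzyme A, a tryptase of cytotoxic granules. The Gzma probe covers rn4 chromosome 2, 44490165 to 44490224 and was well above background on all 15 arrays. Signal ran from -0.03 through 0.94 to 1.82 with fipronil and from -0.68 through 0.50 to 1.00 with vehicle. The groups overlapped, with 3 fipronil livers above all vehicle livers. The difference was 0.60 (SE 0.27, 95% interval 0.02 to 1.18), or 1.52-fold, and did not pass (limma adjusted p = 0.271, unadjusted 0.0438).

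Prf1 encodes perforin, the pore-forming protein through which granzymes reach the target cell. The Prf1 probe covers rn4 chromosome 20, 28663319 to 28663378 and was also well above background on every array. Signal ran from -1.37 through -0.69 to -0.26 with fipronil and from -2.20 through -0.91 to -0.61 with vehicle. Here 3 vehicle livers lay below all fipronil livers and the rest overlapped. The difference was 0.58 (SE 0.23, 95% interval 0.11 to 1.06), with a limma adjusted p of 0.206 (unadjusted 0.0197). It was 0.33 with normexp and quantile normalization (adjusted p = 0.211) and 0.61 with quantile normalization of processed intensity alone (adjusted p = 0.200).

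Gzmb encodes granzyme B, which cleaves caspases and Bid. The granzyme B probe, on rn4 chromosome 15 from 35195458 to 35195517, was dim: 5 of 8 spots with fipronil and 2 of 7 with vehicle were well above background. Signal ran from -4.46 through -3.44 to -2.69 with fipronil and from -5.17 through -4.04 to -3.05 with vehicle, with overlap. The difference was 0.46 (SE 0.33, 95% interval -0.23 to 1.15, limma adjusted p = 0.497). With quantile normalization of processed intensity alone it was 0.59. It fell to 0.05 with normexp (offset 50) and quantile normalization and to -0.0044 with normexp and the 75th percentile. Without vehicle liver 7 the difference was 0.27. The granzyme-like III probe that carries the same name was well above background on 8 of 8 and 6 of 7 arrays and differed by -0.21.

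Nkg7 encodes a membrane protein of cytotoxic granules needed for their release. The Nkg7 probe covers rn4 chromosome 1, 93813978 to 93814037 and was well above background on all 15 arrays. Signal ran from -1.80 through -1.34 to -1.01 with fipronil and from -2.44 through -1.71 to -1.26 with vehicle, and the groups overlapped. The difference was 0.32 (SE 0.16, 95% interval -0.03 to 0.66), or 1.25-fold, with a limma adjusted p of 0.330. With quantile normalization of processed intensity alone it was 0.35 (adjusted p = 0.303), and with normexp and quantile normalization it was 0.10 (adjusted p = 0.531). Without vehicle liver 6, the lowest of its group, it was 0.20 (adjusted p = 0.548). The lowest values of Klrd1, Ccl5, Gzma and Prf1 over single arrays left out, 0.73, 0.60, 0.44 and 0.43, also came without that liver.

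Among the genes of the T cell receptor complex, Cd3d, the delta chain of CD3, was well above background on all 15 arrays (rn4 chromosome 8, 47936669 to 47936728). Signal ran from -1.06 through -0.30 to 0.02 with fipronil and from -0.94 through -0.34 to 0.03 with vehicle. The ranges of the 2 groups were nearly the same. Means were -0.41 ± 0.38 (SD, n = 8) and -0.34 ± 0.32 (SD, n = 7). The interval of the difference, -0.43 to 0.29, takes in changes of up to 0.74-fold and 1.22-fold (limma adjusted p = 0.874).

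The Cd3e probe (CD3 epsilon; rn4 chromosome 8, 47950313 to 47950372) and the Cd2 probe (an adhesion receptor of T and NK cells; rn4 chromosome 2, 196345785 to 196345844) were not well above background on any of the 15 arrays. Their processed intensity was at most 4.32 and 9.51 units, so no fold is given for them. Cd8a, the alpha chain of the CD8 coreceptor (rn4 chromosome 4, 104593483 to 104593542), had spots well above background in 4 of 8 livers with fipronil and 1 of 7 with vehicle, too few for the test. Its signal ran from -5.26 through -3.88 to -3.24 with fipronil and from -5.12 through -4.53 to -3.58 with vehicle. Among 6 T cell and 7 NK cell marker genes, some of which are the genes described here, the defining NK gene Ncr1 was above background on 0 arrays. Klrk1 was above background on 1 array of each group, and Cd4 on 4 of 8 and 2 of 7. With these probes, 2 of the 6 T cell genes (Cd3e and Cd2) and 1 of the 7 NK cell genes (Ncr1) were thus never well above background, which does not show that their transcripts were absent.

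Slides were compared because both groups were present on each. On slide 1 all 7 tested markers were higher with fipronil (median difference 0.71), on slide 3 6 of 7 (1.13) and on slide 4 7 of 7 (1.03). On slide 2 all 7 were lower (median -0.51). The corresponding medians over all tested features were -0.05, 0.01, -0.01 and -0.08 on slides 1 to 4. Slide 3 held 1 vehicle array.

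By gene, Klrd1 differed by 1.10, -0.66, 1.93 and 1.52 on slides 1 to 4, and Ccl5 by 0.96, -0.51, 1.46 and 1.42. Gzma differed by 0.98, -0.68, 1.13 and 1.03, and Prf1 by 0.71, -0.34, 1.09 and 1.07. Gzmb differed by 0.20, -0.61, 1.29 and 1.01, and Nkg7 by 0.51, -0.30, 0.51 and 0.54. For Gzmb, no fipronil spot on slide 2 and no vehicle spot on slides 3 and 4 was well above background, so its values there are not exact. Klrd1, Ccl5, Gzma, Prf1 and Nkg7 have the same pattern, whereas Cd3d stayed between -0.26 and 0.02 on every slide. Not all T cell genes followed Cd3d. Cd8a, too dim for the test, differed by 0.81, -0.92, 0.91 and 0.73. Cd3g, the CD3 gamma gene, differed by 1.04, -0.84, 0.65 and 0.87, with no vehicle spot well above background on slide 4. Of 20 tested T cell genes beside the markers, 11, 7, 13 and 9 were higher on slides 1 to 4. The mean signal over the 7 tested markers was -1.64 and -1.40 in the fipronil livers of slide 2, against -0.79 to -0.33 in the other 6 fipronil livers. In the vehicle livers of slide 2 it was -1.25 and -0.83, the latter being the highest of the vehicle group, and the lowest was -2.14 on slide 4.

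Of the 1249 features higher with fipronil at an unadjusted p under 0.05, 9.93% were lower on slide 2, and 9.37% were lower on slide 2 while higher on the other 3 slides. All 4 of the markers among them had that pattern; features and markers were chosen by the same contrast, so this is a description. Without slide 2, Klrd1 differed by 1.54 (limma adjusted p = 0.0492) and Ccl5 by 1.27 (adjusted p = 0.0402), and both passed. Gzma (1.06, adjusted p = 0.0715) and Prf1 (0.93, adjusted p = 0.0778) did not. That fit leaves out the slide on which the markers ran the other way, so the calls of Klrd1 and Ccl5 are a description. The share of all features called in it is not reported here. With slide as a block, none passed, and Klrd1 differed by 0.88 (adjusted p = 0.184) and Ccl5 by 0.78 (adjusted p = 0.161). Over the alternatives the adjusted p ranged from 0.0492 to 1.00 for Klrd1 (34 alternatives, as it was not tested where all arrays had to be above background), and over 35 from 0.0402 to 0.559 for Ccl5, 0.0715 to 0.739 for Gzma and 0.0778 to 0.690 for Prf1. Whether the difference itself varied between slides was not tested.

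**Figure D2:**
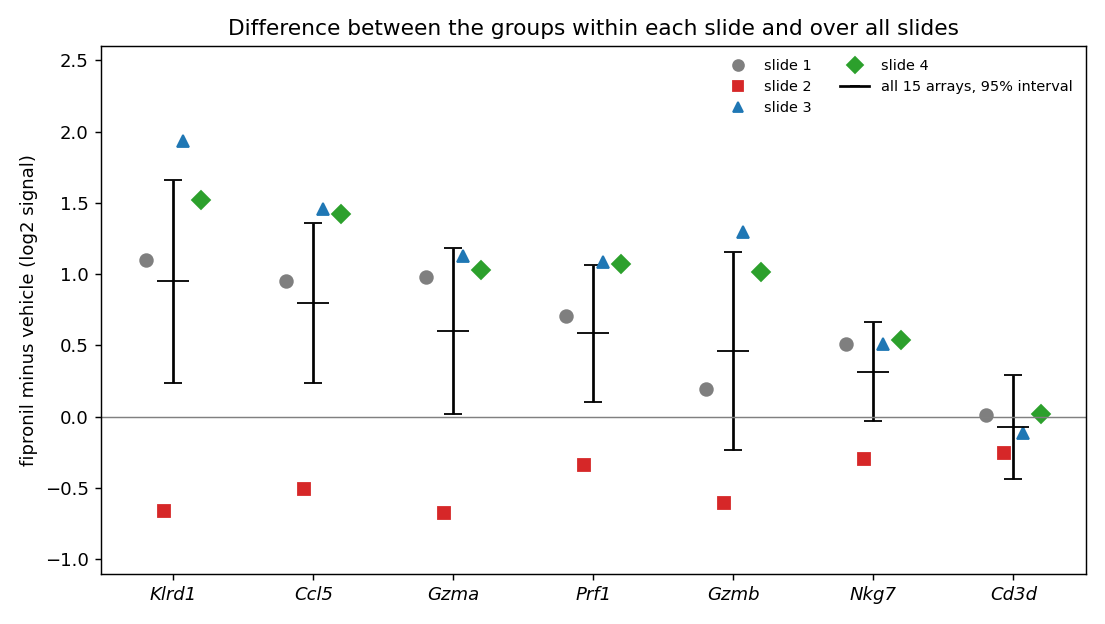
Fipronil minus vehicle difference in log2 signal of each tested marker within each of the 4 slides (symbols) and over all 15 arrays (black bar with its 95% interval). Slide 2 lies below 0 for all 7 genes; slides 1, 3 and 4 lie above 0 for the 6 other than Cd3d.

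Brightness of the arrays moved with the same contrast. The mean 75th percentile was 238 with fipronil and 186 with vehicle on slide 1, 189 and 159 on slide 3 and 211 and 139 on slide 4, but 201 and 196 on slide 2. With group means removed, the correlation of each tested marker with array brightness over 15 arrays was between -0.23 (Cd3d) and 0.31 (Gzmb). With array brightness as a covariate in limma, Klrd1 differed by 1.00 (adjusted p = 0.519), Ccl5 by 0.73 (adjusted p = 0.559), Gzma by 0.53 and Prf1 by 0.54 (adjusted p = 0.739 and 0.642), so sizes were close to those without it and errors were larger. Gzmb was 0.18 and Cd3d turned to 0.03.

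The tested markers varied together from liver to liver within the groups. With group means removed, all 21 pairs correlated positively over the 15 arrays, with Pearson's r from 0.22 (Cd3d with Prf1) to 0.93 (Klrd1 with Ccl5) and a median of 0.58. The 10 pairs among Klrd1, Ccl5, Gzma, Prf1 and Nkg7 had r from 0.73 to 0.93, whereas pairs with Cd3d had 0.22 to 0.57 and pairs with the dim Gzmb probe 0.32 to 0.58. Leaving out the 2 arrays farthest from the median left all 21 pairs positive, with r from 0.19 to 0.93. With the mean of each slide and group removed in place of the group mean, 17 of 21 were positive (median 0.55, lowest -0.38). The arrays share RNA extraction, labelling and scaling, and these values are descriptions over the same 15 livers.

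**Figure D3:**
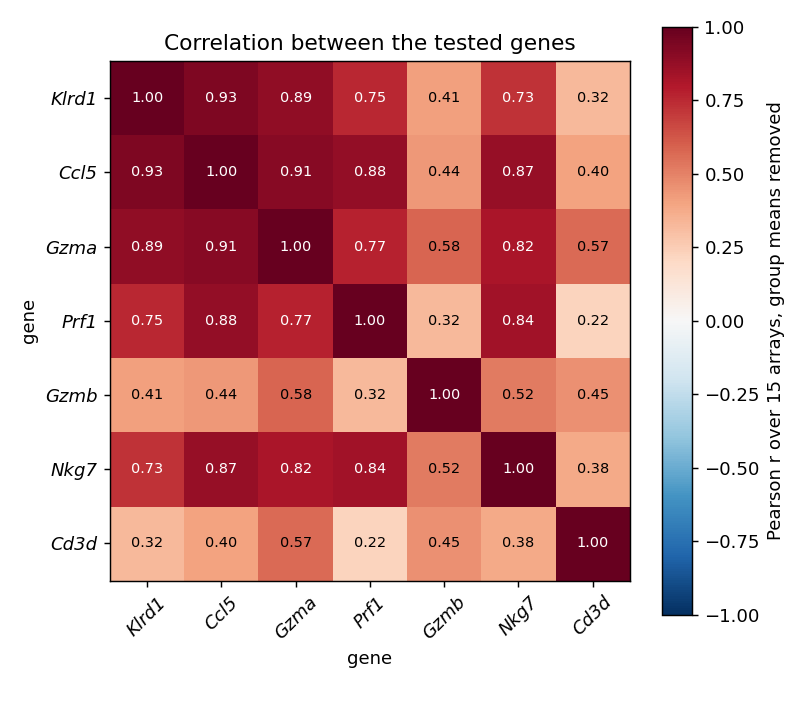
Pearson's r between the log2 signals of each pair of tested markers over 15 arrays after the group means were removed, with colour from blue (-1) to red (1). Klrd1, Ccl5, Gzma, Prf1 and Nkg7 form the block with r from 0.73 to 0.93, and Cd3d and Gzmb have lower values.

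Of 10884 other named genes tested, the 8 whose signal was most like the markers' mean over the 15 arrays (group means removed) were Rac2 (r = 0.92), Gzmm (0.92), C3h15orf48 (0.91), Il2rb (0.90), Itgb2 (0.89), Cdhr1 (0.88), Vsig4 (0.88) and Art2b (0.88). Rac2 is a GTPase of blood cells, Gzmm encodes granzyme M, Il2rb the shared beta chain of the IL-2 and IL-15 receptors, Itgb2 the leukocyte integrin beta-2 chain, Art2b an RT6 antigen of rat T cells and Vsig4 a Kupffer cell complement receptor. Of these 8, Gzmm had the smallest p for fipronil against vehicle, with a difference of 0.59 (limma adjusted p = 0.228). Itgb2 differed by 0.04.

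Other genes of the same pathways were read from 6 lists, with the 10 markers left out. None of their tested genes passed the adjusted test. Of 20 tested T cell receptor and T cell genes (36 with a probe), 12 were higher and 3 were higher at an unadjusted p under 0.05, among them Sh2d1a and Cd48. Sh2d1a, the adaptor SAP, was detected above background in 7 of 8 livers with fipronil and 1 of 7 with vehicle. Its signal ran from -4.34 through -3.27 to -2.20 with fipronil and from -5.66 through -4.26 to -3.56 with vehicle. It entered the test through the fipronil arrays, the group where it was higher, and 6 of the 7 vehicle spots were at background. Its fitted difference of 1.34 (SE 0.34, limma adjusted p = 0.0699) is therefore not exact and is a description. Cd3g and Zap70 were singled out after their values were seen. Cd3g, the CD3 gamma gene next to Cd3d in the same complex, differed by 0.48 (adjusted p = 0.454). Its difference was 0.15 when array brightness was also fitted. Zap70, a kinase of the T cell receptor pathway, was well above background on every array. Zap70 differed the other way, by -0.61 (limma adjusted p = 0.301).

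Of 10 tested NK receptor, adaptor and regulator genes (27 with a probe), 7 were higher, and Klre1, a lectin-like receptor, was the only one past an unadjusted p of 0.05. It was detected above background in 6 of 8 livers with fipronil and 1 of 7 with vehicle, and so also entered the test through the fipronil arrays. Its fitted difference of 1.82 (SE 0.59, limma adjusted p = 0.145) is likewise not exact. The same holds for Klrc3 (1.00) and Ly49i2 (0.61), also among the 7. Each was above background in 6 of 8 livers with fipronil and 1 of 7 with vehicle. Klrb1a, an NKR-P1 receptor gene, had the next smallest p and differed the other way, by -0.66 (adjusted p = 0.312). Median differences were 0.12 for the T cell list and 0.29 for the NK list, beside -0.03 for all tested features. Il2rb is in both lists. Both medians include genes that entered the test through the fipronil arrays, so they are descriptions.

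Of 14 tested cytotoxic granule and death ligand genes (18 with a probe), 11 were higher, with a median of 0.28, and 5 were higher at an unadjusted p under 0.05. Serpinb9, an inhibitor of granzyme B, differed by 0.60 (SE 0.18, limma adjusted p = 0.127) and Srgn, the granule proteoglycan serglycin, by 0.57 (SE 0.19, adjusted p = 0.146). The other 3, chosen after their values were seen, were Gzmk (granzyme K) at 0.72, Gzmm at 0.59 and Rab27a, a GTPase of granule docking, at 0.42. On slide 2 Serpinb9, Srgn, Gzmk and Gzmm differed by -0.19, -0.22, -0.33 and -0.71, and Rab27a by 0.56. Of the 14, 9 were lower on slide 2.

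The remaining lists held chemokine, antigen presentation and interferon genes. Of 15 tested lymphocyte chemokines and receptors (26 with a probe), 7 were higher (median -0.03), with Cxcl9, an interferon gamma-induced chemokine for T cells, at 0.64 (adjusted p = 0.272) and Ccl4 at 0.42 (adjusted p = 0.340). Of 20 tested MHC class I presentation genes (20 with a probe), 8 were higher (median -0.03), and the smallest p values belonged to Psmb10, an immunoproteasome subunit, at -0.43 (limma adjusted p = 0.175) and B2m, the class I light chain, at -0.32 (adjusted p = 0.192). The B2m probe was saturated on all 15 arrays, so its difference follows each array's 75th percentile and says nothing of the transcript. It was -0.02 with array brightness as a covariate. Of 18 tested interferon gamma response genes (23 with a probe), 11 were higher (median 0.10), with Ifngr2, a receptor chain, at -0.30 (adjusted p = 0.229); Ifng itself was above background on 0 arrays.

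**Figure D4:**
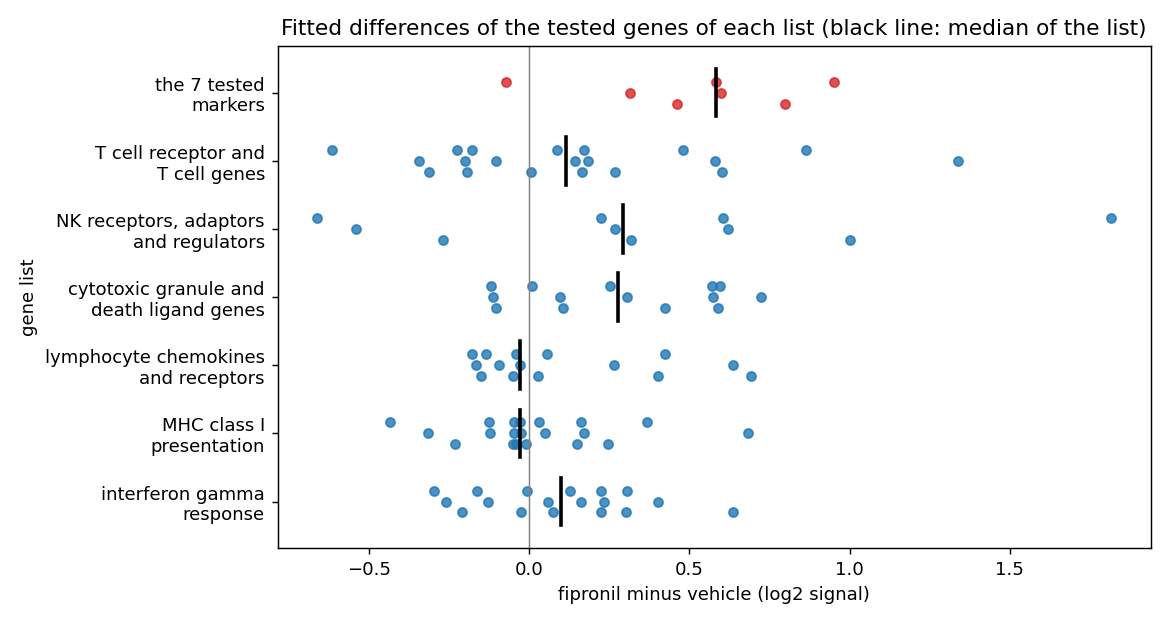
Fitted fipronil minus vehicle differences in log2 signal for the 7 tested markers (red) and for the tested genes of the 6 pathway lists without them (blue), with the median of each list as a black line. The markers' median is 0.58, those of the lists lie between -0.03 and 0.29, and no gene in the plot passed the adjusted test.

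Markers of other liver cells were read beside these results. Kupffer cell and macrophage genes (12 of 14 with a probe, all tested) were higher in 11 of 12, with a median of 0.18 and none called. On slide 2 all 12 were lower (median -0.89) and on slide 4 all 12 were higher (1.00). On slide 1, 5 of the 12 were higher (median -0.03), and on slide 3, 8 of the 12 (0.06). Their summed signal was 132 to 271 times the array's 75th percentile with fipronil and 95.9 to 314 with vehicle. Of 7 tested endothelial genes, 4 were higher at an unadjusted p under 0.05 (Stab2, Lyve1, Fcgr2b and Kdr, by 0.29 to 0.52) and none was called, while Vwf and Cdh5 differed by -0.24 and -0.08, with sums of 89.4 to 174 and 72.4 to 101. The 10 hepatocyte genes, well above background on all 15 arrays, were saturated on all arrays in 5 of 10 (Alb, Ttr, Tf, Serpina1 and Fgb) and on some in 2 (Apoa1 and Apob), so no difference is given for those 7. The other 3, Cps1, Hnf4a and Tat, differed by -0.02, 0.03 and -0.14. Erythroid genes were higher in 3 of 6 (median -0.0083), with sums of 10.5 to 32.1 and 12.1 to 63.0. They ran opposite to the markers on slides 2 and 3, with all 6 higher on slide 2 (median 0.87) and all 6 lower on slide 3 (-1.58). Neutrophil genes were tested in 3 of 11, with S100a8 and S100a9 at 0.52 and 0.55 and Fcnb at 0.04 (none called). Mpo, Camp and Ltf were above background on 0 arrays. Both tested B cell genes were lower with fipronil, at -0.34 for Cd22 and -0.25 for Blk (none called), and Ms4a1, Cr2 and Jchain were above background on 0 arrays. Of 4 tested mast cell genes 2 were higher and 2 lower: Hdc, which makes histamine, rose by 1.22 (adjusted p = 0.00140), Mcpt1 differed by 0.66, Kit by -0.25 and Tpsab1 by -0.31. Hdc was the one called in that list, and in the stellate cell list Rgs5 rose by 1.01 (adjusted p = 0.00857). Of the 9 tested genes of the stellate cell list 5 were higher (median 0.04). Des, Col1a1, Pdgfrb and Col1a2 were lower, by -0.32 (Des) to -0.07 (Col1a2). Hdc and Rgs5 were higher on all 4 slides. With array brightness as a covariate Rgs5 no longer passed (0.97, adjusted p = 0.109). The part of these cells in the marker differences was not tested.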

How the data were processed

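Liver RNA was measured on 15 one-colour Agilent arrays. Spot intensity in the deposited files was written by Feature Extraction 9.5.3.1, which subtracted background and detrended it, per the file headers. Flags for signal well above background and outlier spots are also in the deposited files. Probe coordinates are rn4, per the file headers, and exon or UTR positions are not given here. The authors' deposited value table holds log2 values for 22244 probes, with column medians of 7.651 to 7.661; 6 of the 10 genes are in it. It was read as a quantile normalized log2 table from its agreement with median intensity, and its probe selection is unknown. It was used as an alternative only.

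Outlier spots were dropped, spots of a probe averaged, log2 values taken relative to each array's 75th percentile, and a gene represented by its brightest probe. Testing took features detected above background on 7 or more arrays and missing on at most 3, and used limma 3.58.1 in R 4.3.3 (lmFit and eBayes, two-sided, Benjamini-Hochberg adjusted p under 0.05, 95% intervals), after a check on simulated data. The labels name the rats as separate animals. Names came from the RefSeq GRCr8 table by accession, symbol or synonym. Named genes were all 10 markers and, from each pathway list, those past the test and the 2 with the smallest p, plus the 8 most like the markers' mean; some genes of the lists are not reported here. The markers and lists were chosen with earlier results of these data known. Alternatives covered background correction (normexp with an offset of 50), normalization, probes, filter, slide, replicate block, array weights, brightness, and leaving out each slide or array.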

Additional observations from a re-analysis of the deposited data

Results flagged for a closer look

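Single spots stood apart from the rest of their group, by a Dixon gap test at the 95% level, in 4 of 24 groups of arrays looked at (12 probes in 2 groups), a test that picks about 1 in 20 groups by chance. All 4 spots were not well above background. The Cd2 probe was high in fipronil liver 2 at -4.82, where the next value was -6.08 and the group median -6.23, and in vehicle liver 7 at -5.43 (group median -6.01). The Cd3e probe was also high in vehicle liver 7, at -5.41 (group median -5.98). The granzyme-like I probe that carries the name Gzmb was low in vehicle liver 5 at -4.87 (group median -3.85).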

How the results depend on the processing

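Klrd1, Ccl5, Gzma, Prf1 and Nkg7 were higher with fipronil under all 35 alternatives. The number of markers called was 0 under 34 of 35 and 2 without slide 2, the slide on which they ran the other way. It was 0 when any single array was left out. Among the 7 tested markers, directions turned for 2: Gzmb to -0.0044 with normexp and the 75th percentile and to -0.21 with the brightest probe of that name (chosen after seeing the data), and Cd3d to 0.034 with array brightness as a covariate and, over single arrays left out, between -0.17 (without vehicle liver 3) and 0.021 (without fipronil liver 3). The 175 features called became 57 with normexp and the 75th percentile, 85 without the filter, 39 with brightness, 33 without slide 1 and 49 without slide 4, and 86 (without fipronil liver 8) to 283 (without vehicle liver 3) when single arrays were left out; the cause was not tested. A replicate block called 90 features and 0 markers; the numbers were not taken to pair the rats, since only 3 of 7 pairs correlated over 0.1. Low signal limits Cd2, Cd3e, Cd8a and Gzmb; the differences of Cd2 and Cd3e, never above background, were positive under 5 and 7 of 34 alternatives.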
